A study of Mus musculus with 10 samples.

Results

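RNA polymerase II was compared between mouse Th1 cells restimulated for 2 h and for 30 min, gene by gene, in chromatin immunoprecipitation and sequencing (ChIP-seq) libraries. Th1 cells are the CD4+ helper T cells that make interferon gamma. The comparison rests on 4 of the 10 samples of the series, namely 2 libraries for each time, and on 9908 of the 10419 genes that had an assigned peak in any polymerase library. These are the genes with a peak in at least 2 of the 6 polymerase libraries; the other 2 polymerase libraries, from cells that were not restimulated (NR), are given beside the others as the starting level.

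All groups were primary Th1 cells (strain Balb/c DO11.10), and all polymerase libraries used the antibody 8WG16 (ab817) on chromatin fixed in 1% formaldehyde for 10 min. DO11.10 mice carry a transgenic T cell receptor. Peripheral CD4+ T cells had been primed with interleukin 12 and an antibody against interleukin 4, expanded with a recombinant interleukin 2, and rested without it. The 30 min and 2 h groups then received anti-CD3 bound to the plate (5 µg/ml) together with anti-CD28 in solution (2.5 µg/ml), which engage the T cell receptor and its costimulatory receptor, and the NR group did not. Whether the replicates are separate animals or separate cultures is not in the labels; the p-values below speak only of library-to-library spread, possibly of technical origin. In bulk chromatin, more cells with polymerase on a gene and more polymerase per cell cannot be told apart.

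When the T cell receptor is engaged, calcium, MAP kinase and NF-kB signalling first act on transcription factors already present in the cell. Polymerase II is thereby brought quickly to immediate early genes such as Fos and the Egr and Nr4a families, whose products in part then act on later genes. Cytokine genes, surface receptors and inhibitors of signalling follow, and many inhibitors act back on the pathway that switched them on. A ChIP-seq peak called as a long stretch over a gene shows polymerase beyond the start site; a short peak shows only that the called signal at the promoter ends near the start site.

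The deposited lists hold peaks, not read counts, so the quantity compared was called length: the summed length in bp of the promoter peaks (within 1000 bp of a start site) that the authors assigned to a gene. It measures how far the called signal extends, not how many polymerases are bound, and it grows with sequencing depth. Relative depth, read from the lowest background pileup expressed in reads, was 1.57 and 4.67 in 30 min replicates 1 and 2 and 2.48 and 5.55 in 2 h replicates 1 and 2. The lists held 9074 and 10680 promoter peaks at 30 min against 10549 and 10658 at 2 h, and 8.98 and 18.2 Mb of called promoter DNA against 14.3 and 17.98 Mb. The 30 min replicate 1 was thus the shallowest of the 4 libraries, and the part of depth in the gene results below was not tested. Of 9 Th1 markers, 8 or 9 had an assigned peak in every library, and none of 6 B cell markers had one. Of 6 myeloid markers only Cd68 had a peak, with 627 to 8697 bp, and Lyz2, Csf1r, Itgam, Cd14 and Adgre1 were at 0. Of 4 natural killer cell markers 1, Klrk1, had a peak in every library (719 to 1715 bp). Of 2 CD8 T cell markers, Cd8a was at 0 and Cd8b1 had a peak in replicate 2 of each group (314, 521 and 576 bp). The part of such cells in the results was not tested.

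The promoters of 6 genes show the sequence beside which the early and late patterns were measured. They are the 250 bases upstream of the RefSeq start (GRCm38.p6, the assembly of mm10), read 5′ to 3′ on the gene's strand. Fos and Srebf2 had longer called peaks at 30 min, and Rgs16, Il3, Il2 and Csf2 at 2 h. Capitals mark TATAA on the gene's strand, the core of a TATA box, and on both strands GGAAA, the core bound by NFAT and related factors, and CCAAT, bound by NF-Y. The regions are chr12:85473640-85473889 for Fos (plus strand), chr15:82147019-82147268 for Srebf2 (plus), chr1:153740103-153740352 for Rgs16 (plus), chr11:54267280-54267529 for Il3 (minus), chr3:37125955-37126204 for Il2 (minus) and chr11:54249900-54250149 for Csf2 (minus).
Fos: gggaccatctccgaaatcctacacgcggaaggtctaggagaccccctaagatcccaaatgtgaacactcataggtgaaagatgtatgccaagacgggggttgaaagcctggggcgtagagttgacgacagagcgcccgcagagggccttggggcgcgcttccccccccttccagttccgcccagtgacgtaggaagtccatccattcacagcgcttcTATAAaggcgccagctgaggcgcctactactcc
Srebf2: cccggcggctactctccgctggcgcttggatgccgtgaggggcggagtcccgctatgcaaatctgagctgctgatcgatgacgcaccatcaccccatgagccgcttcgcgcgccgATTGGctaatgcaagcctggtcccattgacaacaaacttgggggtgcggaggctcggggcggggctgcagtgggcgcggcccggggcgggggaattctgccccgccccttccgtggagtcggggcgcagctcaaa
Rgs16: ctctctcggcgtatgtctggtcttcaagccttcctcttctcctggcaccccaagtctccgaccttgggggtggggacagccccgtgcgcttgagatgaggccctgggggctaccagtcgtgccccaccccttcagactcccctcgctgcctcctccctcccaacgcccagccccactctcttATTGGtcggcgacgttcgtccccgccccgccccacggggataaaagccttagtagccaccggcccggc
Il3: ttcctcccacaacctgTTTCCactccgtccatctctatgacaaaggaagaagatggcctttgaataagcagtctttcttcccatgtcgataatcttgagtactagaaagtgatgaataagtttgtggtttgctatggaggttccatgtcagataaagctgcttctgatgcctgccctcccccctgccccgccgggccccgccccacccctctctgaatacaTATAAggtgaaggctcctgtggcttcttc
Il2: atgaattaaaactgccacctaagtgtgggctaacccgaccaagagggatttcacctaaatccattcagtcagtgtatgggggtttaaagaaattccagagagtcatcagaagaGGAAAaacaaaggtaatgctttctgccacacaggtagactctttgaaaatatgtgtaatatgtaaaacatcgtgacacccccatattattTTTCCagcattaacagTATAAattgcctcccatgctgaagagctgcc
Csf2: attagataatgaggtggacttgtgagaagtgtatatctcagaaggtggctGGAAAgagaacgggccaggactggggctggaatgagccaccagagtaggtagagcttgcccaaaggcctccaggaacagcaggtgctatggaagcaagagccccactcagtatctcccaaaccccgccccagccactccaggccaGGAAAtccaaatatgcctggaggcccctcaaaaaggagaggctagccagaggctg

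TATAA began 33 bases before the start in Fos, 31 in Il2 and 29 in Il3. GGAAA occurred 2 times in Il2, 2 in Csf2 and 1 time in Il3, and was not in these windows of Fos, Srebf2 and Rgs16. CCAAT, here read as its reverse complement ATTGG, occurred 1 time in Srebf2 and 1 time in Rgs16. Over the lists, 20 of 22 cytokine and ligand promoters in the RefSeq table held GGAAA, against 55.6% of all 32851 promoters, and 9 of 22 held TATAA, against 16.0%. GGAAA was also common in lists with as many early as late genes, in 15 of 18 NF-kB and 9 of 11 quiescence promoters. It was in 5 of 15 glycolysis promoters. For cholesterol genes, 9 of 10 promoters held CCAAT, against 33.8% of all promoters. Another sequence searched for, TCACNCCAC, was in 1 of the 10, against 1.05% of all promoters. For immediate early transcription factors 6 of 20 held TATAA and 7 of 20 held GGAAA. These matches are a description of letters in a window.

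No gene passed the test between 2 h and 30 min. With limma on log2(bp + 100), centred so that the typical gene has no change, the adjusted p was under 0.05 for 0 genes longer at 2 h (percent called 0) and 0 genes shorter (percent called 0) of 9908. At an unadjusted p under 0.05 there were 513 genes (5.18%), of which 224 (2.26%) were longer and 289 (2.92%) shorter at 2 h. The lowest adjusted p, 0.0619, belonged to the microRNA gene Mir7079. Every gene described below therefore missed the test. An exact permutation test of 2 libraries against 2 cannot give a p below 0.3333. Without 30 min replicate 2, limma called 181 genes longer and 25 shorter, and without 30 min replicate 1 it called 4 and 0, where the lone 30 min library is assumed to vary like the other groups.

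What could be described was which genes did not overlap between the times. After centring, 1721 genes (17.4%) were higher in both 2 h libraries, called late here, and 1885 genes (19.0%) were higher in both 30 min libraries, called early. In bp before centring the split was 1681 late (17.0%) and 72 early (0.727%). The centring removed a log2 shift of 0.32 towards 2 h, so "early" mostly means lower at 2 h relative to the typical gene, and only 67 of the 1885 were also longer in bp in both 30 min libraries. Of the 1885 early genes, 88 had no peak in at least 1 of the 30 min libraries, and were placed there only by the centring of zeros. Of the 1721 late genes, 340 had no peak in 30 min replicate 1 and a peak in the other 3 libraries.

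By called length, the immediate early transcription factors leaned early. Of 24 tested, 12 were early (50%) and 2 were late (8.33%), against 19.0% and 17.4% of all genes, with a list median log2 change of -0.20 against -0.01 for all genes. In bp before centring, 4 were early (16.7%) and 2 late (8.33%), against 0.727% and 17.0% of all genes. By position, peaks were taken over each gene's own span whatever gene the authors assigned. There 7 of 25 were early and 0 late, against 19.3% and 16.5% of all 10809 genes measured that way. This length cannot exceed the span and its flank, so a gene covered throughout in both 30 min libraries cannot be late. Ier2 and Myc both had the list's median position change of -0.32, which is what centring alone gives a gene of unchanged length. The 0 late by position is not read as a lean. Peak rank showed no lean, with 4 of 23 genes (17.4%) higher in both 2 h libraries and 4 (17.4%) higher in both 30 min libraries. The housekeeping list had a similar median of -0.16, with 11 of 13 changes negative and 4 early. The 4 immediate early genes that were longer in bp in both 30 min libraries were Fos, Fosb, Egr1 and Egr3.

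Fos, which encodes a subunit of the AP-1 factor, lies at chr12:85473890-85477274. Its called length was 1116 and 1160 bp before restimulation, 2031 and 3148 bp at 30 min and 1110 and 978 bp at 2 h. Both 2 h libraries were thus at or below the NR length, and the 30 min libraries stood above them without overlap (2590 ± 789.8 against 1044 ± 93.3 bp, SD, n = 2). The downstream edge of the peak lay 1576 and 1549 bp past the start at 30 min and 685 and 447 bp past it at 2 h, against 374 and 437 bp in NR cells. The log2 change was -1.52 (SE 0.20, limma adjusted p = 0.24). Polymerase was still called strongly at the start itself: the peak's fold enrichment was at percentile 98.95 and 99.65 of its libraries at 30 min and at 95.18 and 96.93 at 2 h.

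Fosb, an AP-1 subunit of the same family, had no peak in NR cells, 844 and 2030 bp at 30 min and 528 and 653 bp at 2 h. At 30 min a separate called stretch lay inside the gene, reaching 1324 and 1946 bp past the start, and at 2 h the peaks ended at 340 and 342 bp (log2 change -1.36, limma adjusted p = 0.725).

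Egr1 and Egr3 encode zinc finger factors induced by receptor signalling. Egr1 measured 529 and 976 bp before restimulation, 7114 and 13069 bp at 30 min and 6181 and 7097 bp at 2 h (log2 change -0.85, limma adjusted p = 0.564). Egr3 had no NR peak, 14771 and 17173 bp at 30 min and 10455 and 10963 bp at 2 h (log2 change -0.89, limma adjusted p = 0.672). Both were still longer at 2 h than in NR cells, unlike Fos. In Egr1 the 2 h and 30 min values nearly meet, at 7097 and 7114 bp. By position, which counts only the gene's own span and its flank, the changes were -0.34 for Egr1 and -0.37 for Egr3. Centring alone gives -0.32 by position to a gene of unchanged length, as it did for Nfkbid. Nearly all of both position changes is thus the centring, and they are not read as a loss over the span.

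Other immediate early genes, Atf3 apart, were long at both times. Egr2 had no NR peak, 7853 and 12325 bp at 30 min and 10168 and 11706 bp at 2 h, with a log2 change of -0.17 that is 0.15 without centring. Nr4a1, an orphan nuclear receptor, had 0 and 483 bp before restimulation, 11034 and 12478 bp at 30 min and 11213 and 11338 bp at 2 h, and its libraries overlapped. Nr4a3 had 479 and 628 bp, then 14671 and 27123 bp, then 13614 and 14902 bp, and overlapped in bp (log2 change -0.80, limma adjusted p = 0.564). Ier2 had 7056 and 10556 bp at 30 min and 7636 and 7600 bp at 2 h, also overlapping in bp. Myc, which drives growth genes, had 8970 and 9661 bp at 30 min and 10096 and 10122 bp at 2 h; its log2 change of -0.20 was 0.12 without centring. Atf3, a stress-induced factor, had 853 and 2095 bp at 30 min and 1760 and 2132 bp at 2 h, and overlapped (log2 change 0.18, and -0.03 without 30 min replicate 1). Egr2, Nr4a3 and Ier2 were early only after centring, Myc was late only in bp before it, and Nr4a1 and Atf3 overlapped both ways.

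The extents of called peaks around 8 genes show the early and late patterns by library.

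**Figure D1:**
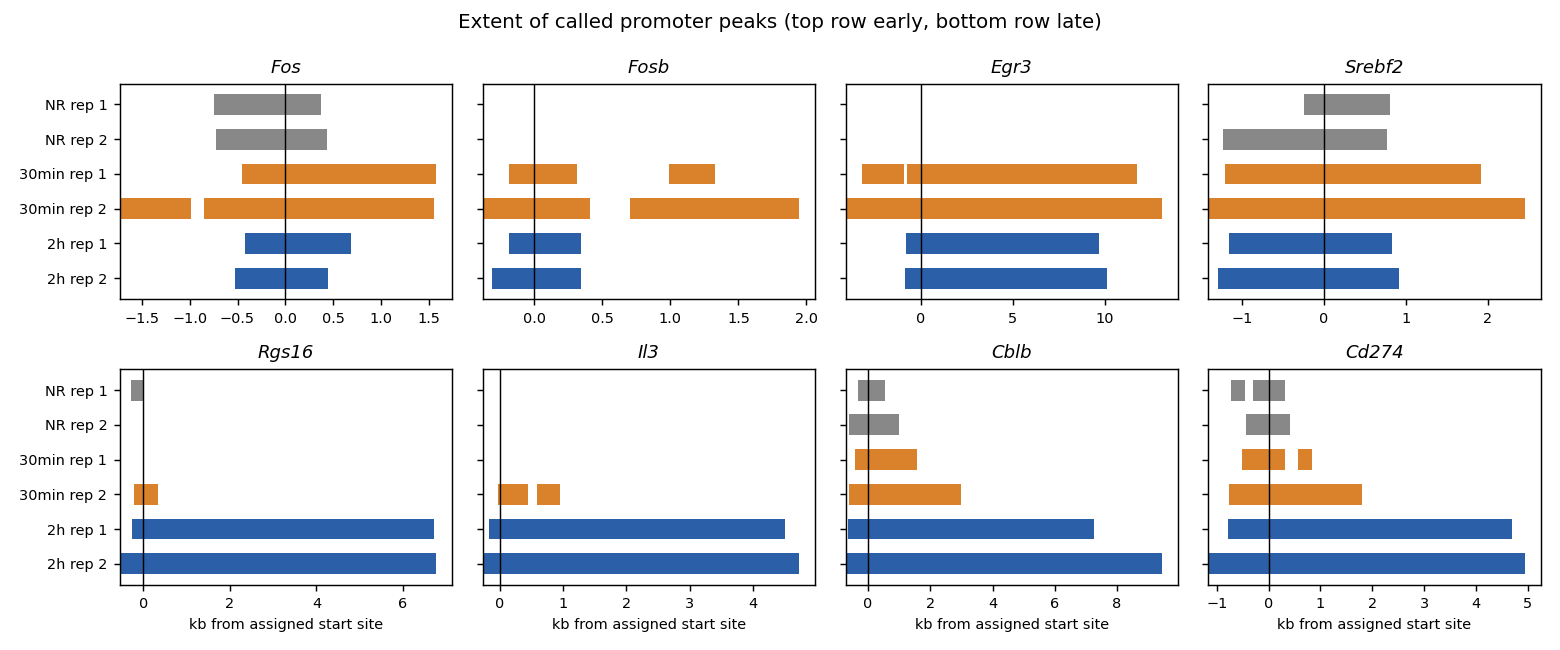
Each bar is a called promoter peak, drawn by its distance in kb from the start site the authors assigned (vertical line), for NR (grey), 30 min (orange) and 2 h (blue) libraries. In Fos the 2 h peaks end at 685 and 447 bp past the start after 1576 and 1549 bp at 30 min, while in Cblb they end at 7252 and 9440 bp after 1575 and 2981 bp.

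Genes of cholesterol synthesis and uptake were the list with the lowest median. Of 15 tested, 11 were early (73.3%) and 1 late (6.67%), against 19.0% and 17.4% of all genes, and 13 of 15 had a negative change, with a median of -0.70. Before centring 4 were early in bp (26.7%), among them Srebf2 and Idi1, and 0 were late, against 0.727% and 17.0% of all genes. By position 13 of 16 were early and 1 late, against 19.3% and 16.5% of all genes measured that way. At an unadjusted p under 0.05 there were 9 of 15, against 5.18% of all genes, and 0 passed after adjustment over all genes.

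Srebf2, which encodes the transcription factor SREBP2 that drives this pathway, had 1054 and 2009 bp, then 3116 and 3861 bp, then 1997 and 2205 bp. The 2 h values overlapped those of NR cells (log2 change -1.02, limma adjusted p = 0.614). Idi1, an enzyme of isoprenoid synthesis, had 981 and 1048 bp, then 1337 and 1786 bp, then 1092 and 1232 bp (log2 change -0.70).

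The height of the peak within its library pointed the same way for these genes. Fold enrichment is the authors' ratio of a peak to its local background, and it was used as a percentile within each library over the 7744 genes with a peak in all 4 libraries. Over those genes 1560 (20.1%) had a higher percentile in both 2 h libraries and 1561 (20.2%) in both 30 min libraries. Of 13 cholesterol genes with peaks in all 4 libraries, 10 (76.9%) ranked higher in both 30 min libraries and 1 (7.69%) in both 2 h libraries. Hmgcs1, an early enzyme of sterol synthesis, was at percentile 83.9 and 86.0 at 30 min and 26.0 and 35.2 at 2 h, and its length was 990 and 1954 bp against 710 and 1280 bp. Idi1 was at 74.8 and 79.8 against 11.2 and 37.8. Lss, which closes the sterol ring, was at 28.5 and 36.8 against 2.16 and 4.46. Length and rank come from the same libraries and are not independent of each other.

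**Figure D2:**
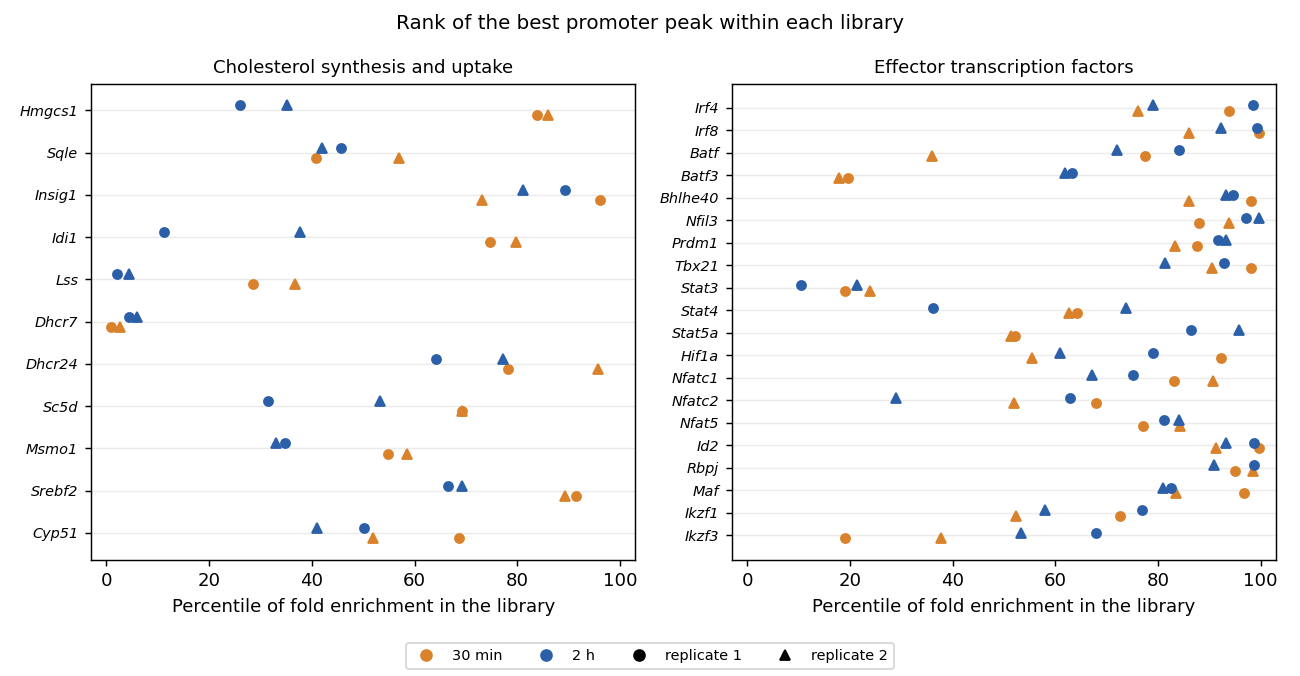
Percentile of each gene's best promoter peak by fold enrichment, among genes with a peak in all 4 libraries, for 30 min (orange) and 2 h (blue), replicates 1 as circles and replicates 2 as triangles. Hmgcs1, Idi1, Lss, Sc5d, Msmo1 and Srebf2 have both 2 h points left of both 30 min points, while Stat5a, Batf3 and Ikzf3 have both to the right.

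By called length, cytokines, chemokines and ligands of the TNF family leaned late. Of 28 listed, 21 were tested; 9 were late (42.9%) and 0 early, against 17.4% and 19.0% of all genes, with a list median of 0.19. In bp 10 were late (47.6%) and 0 early, against 17.0% and 0.727% of all genes. Peak rank needs a peak in all 4 libraries, which 8 of the 9 late genes lacked, so it could not show this lean. Of the 13 genes that had one, 2 (15.4%) had a higher fold enrichment percentile in both 2 h libraries and 1 (7.69%) in both 30 min libraries. The shares of all genes were 20.1% and 20.2%. The number of listed genes with an assigned peak was 9 and 10 in the NR libraries, 13 and 18 at 30 min, and 21 in each 2 h library. Among the 9 late genes, 8 had no peak in 30 min replicate 1, the shallowest of the 4 libraries. With that library left out and 30 min replicate 2 standing alone, 12 of the 21 genes were above it in both 2 h libraries, against 29.8% of all genes.

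Il2 (chr3:37120713-37125954), the main T cell growth factor, had no peak in either NR or either 30 min library and 683 and 1135 bp at 2 h. Il13, a cytokine better known from Th2 cells, was listed with no peak in those 4 libraries and with 307 and 697 bp at 2 h. For Ccl1, a chemokine, the 2 h values were 1061 and 1143 bp and the other 4 libraries again had none. These were the only cytokine list members with a peak in both 2 h libraries and neither 30 min library, and no fold is given for them.

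Il3 and Csf2, neighbours on chromosome 11 that encode growth factors of myeloid cells, had peaks only in 1 of the 30 min libraries. Il3 had 0 and 856 bp at 30 min and 4683 and 4995 bp at 2 h, with no NR peak (log2 change 3.68, SE 0.82, limma adjusted p = 0.564). The downstream edge lay 957 bp past the start in 30 min replicate 2 and 4509 and 4727 bp past it at 2 h, beyond the end of the gene at chr11:54265085-54267279. Csf2 had 0 and 2859 bp at 30 min and 4135 and 4436 bp at 2 h, with no NR peak (log2 change 2.69, limma adjusted p = 0.866). Where a library has no peak, as here at 30 min, the log2 change depends on the 100 bp added to every value. It also depends on which 30 min library is kept: without replicate 1 the changes were 2.45 for Il3 (limma adjusted p = 0.171) and 0.65 for Csf2 (0.992), and without replicate 2 they were 4.92 (0.0263) and 4.74 (0.027).

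Tnfsf8, the ligand of CD30 (chr4:63831202-63861508), had a peak in all 4 libraries, with 250 and 1932 bp at 30 min and 5736 and 5197 bp at 2 h, and none in NR cells (log2 change 2.40, SE 0.59, limma adjusted p = 0.614). Summits outside promoter peaks, which the length does not use, numbered 1 and 1 inside this gene at 30 min and 11 and 8 at 2 h. Tnfsf11, the ligand RANKL, had 0 and 1074 bp at 30 min and 1442 and 1874 bp at 2 h (log2 change 2.03, limma adjusted p = 0.866). Its 30 min replicate 2 was nearer to the 2 h values than to replicate 1, and without replicate 1 the change was 0.65. Without 30 min replicate 1 the change of Tnfsf8 was 1.53, and without 30 min replicate 2 it was 3.28 (limma adjusted p = 0.0346).

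Cytokine genes of the Th1 program were already long at 30 min. Ifng, the defining Th1 cytokine, had 8006 and 3459 bp before restimulation, 9191 and 10957 bp at 30 min and 10545 and 12175 bp at 2 h; its log2 change of -0.14 was 0.17 without centring, and its libraries overlapped. Ccl4 had no NR peak, 4861 and 5276 bp at 30 min and 5205 and 5682 bp at 2 h (-0.22, and 0.10 without centring). Ccl3, beside it, had 1283 and 3769 bp at 30 min and 3952 and 3843 bp at 2 h, so that only replicate 1 of 30 min stood apart (0.47). Tnf had no assigned peak in any library, but by position its whole measured span of 4641 bp was covered by a peak in all 6, so the authors' assignment gave that signal to another gene.

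**Figure D3:**
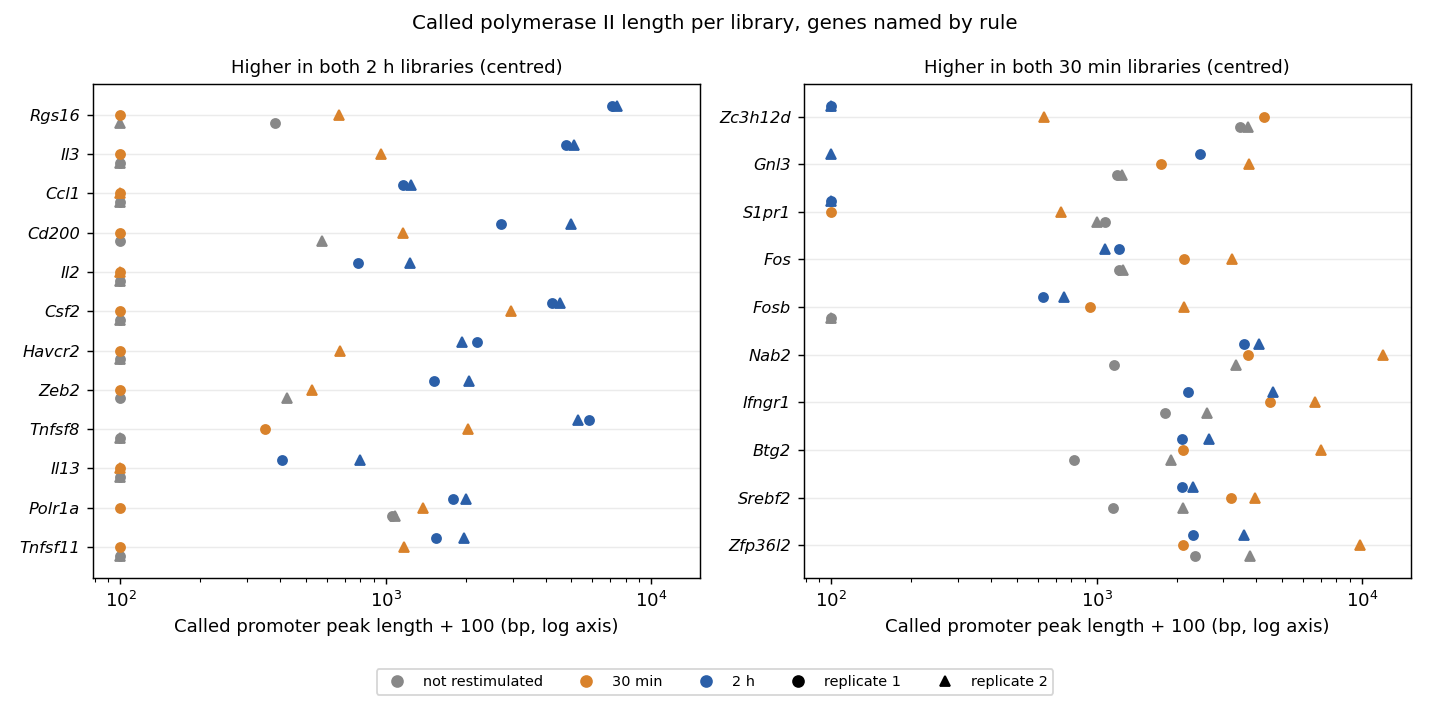
Called promoter peak length plus 100 bp on a log axis, per library, for 12 late and 10 early genes chosen by size of change among the fixed lists; points at 100 are libraries with no peak. In 11 of 12 late genes the 30 min replicate 1 (orange circle) has no peak, and in Fos and Srebf2 both 2 h points lie within or beside the NR points.

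Feedback regulators of signalling and mRNA decay were divided. Of 29 tested, 7 were late (24.1%) and 8 early (27.6%), with a median of -0.09, against 17.4% and 19.0% of all genes. In bp 10 were late (34.5%) and 1 early (3.45%), against 17.0% and 0.727%. Rgs16, which dampens G protein coupled receptor signalling (chr1:153740353-153745468), had 282 and 0 bp before restimulation, 0 and 563 bp at 30 min and 6986 and 7314 bp at 2 h. Its 2 h peaks ran to 6713 and 6773 bp past the start, beyond the end of the gene (log2 change 4.50, SE 0.94, limma adjusted p = 0.564). This was the largest late change among the listed genes. It was 3.53 without 30 min replicate 1.

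Cblb, a ubiquitin ligase that limits T cell receptor signalling (chr16:52031230-52208047), had peaks in every library, so its change does not rest on the added 100 bp. In NR cells it had 863 and 1614 bp, followed by 1982 and 3607 bp at 30 min and 7913 and 10164 bp at 2 h, with no overlap between the 3 groups (2794.5 ± 1149 against 9039 ± 1592 bp for the last 2, SD, n = 2). The log2 change was 1.39 (SE 0.20, limma adjusted p = 0.255). Summits outside promoter peaks inside Cblb numbered 3 and 9 at 30 min and 5 and 11 at 2 h, a smaller difference than between replicates.

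The early members of the list include mRNA decay factors and corepressors. Nab2, a corepressor of Egr proteins, had 3614 and 11877 bp at 30 min and 3488 and 3997 bp at 2 h, and Zfp36l2, which binds AU-rich elements in mRNA, had 2008 and 9693 bp against 2202 and 3486 bp. In both the replicate 2 at 30 min carried the difference, the values overlapped in bp, and the log2 changes were -1.12 and -0.98 (limma adjusted p = 0.866 for both). Btg2, an antiproliferative immediate early gene, behaved alike with 2020 and 6910 bp against 2002 and 2552 bp (-1.02). Of the 13 housekeeping genes tested, 4 were early (30.8%, against 19.0% of all genes) and 0 late (against 17.4%), with a median of -0.16 and 11 of 13 negative. Without 30 min replicate 1 and without 30 min replicate 2 in turn, the changes were -1.56 and -0.66 for Nab2, -1.69 and -0.26 for Zfp36l2 and -1.49 and -0.55 for Btg2.

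Zc3h12d, a ribonuclease of the Regnase family, had 4186 and 534 bp at 30 min and no assigned peak at 2 h, and was the only feedback gene with peaks in both 30 min libraries and neither 2 h library. By position it had 4186 and 5487 bp at 30 min and 5582 and 6060 bp at 2 h, a log2 change of -0.04, so its apparent loss is a change of the gene to which the peak was assigned. Gnl3, a nucleolar GTPase, showed the same: 1644 and 3655 bp against 2345 and 0 bp by assignment, and 1644 and 8063 bp against 4923 and 8699 bp by position (log2 change -2.69 and 0.50). S1pr1, a receptor for exit from lymph nodes, had 0 and 633 bp at 30 min and no peak at 2 h, so 3 of its 4 values were 0. Nfkbid, an IkB family protein, had assigned peaks of 2127 and 2543 bp in NR cells and none in the 4 restimulated libraries; by position it had 9019 bp in each of those 4, its whole span.

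Surface receptors had 5 late (25%) and 3 early (15%) of 20 tested, with a median of 0.08, against 17.4% and 19.0% of all genes. In bp 6 were late (30%, against 17.0%) and 0 early (against 0.727%). Cd274, which encodes the inhibitory ligand PD-L1 (chr19:29362107-29388095), had 885 and 856 bp before restimulation, 1100 and 2570 bp at 30 min and 5495 and 6104 bp at 2 h (log2 change 1.40, SE 0.20, limma adjusted p = 0.255). Its peak edge moved from 837 and 1797 bp past the start to 4703 and 4940 bp. Havcr2, the inhibitory receptor TIM-3, had 0 and 569 bp at 30 min and 2103 and 1828 bp at 2 h (2.68, limma adjusted p = 0.715). Cd200 had 0 and 1056 bp against 2623 and 4892 bp (3.12, limma adjusted p = 0.866). Cd274, Havcr2 and Cd200 thus had no overlap between the times. Without 30 min replicate 1 their changes were 1.22, 1.70 and 1.75. The list also holds the inhibitory receptors Pdcd1, Ctla4, Lag3 and Tigit, which are not described here, so nothing is said of inhibitors as a class. Ifngr1, a chain of the interferon gamma receptor, had 4380 and 6543 bp against 2116 and 4504 bp and overlapped in bp (-1.09, limma adjusted p = 0.672). Cd69, an early activation marker, had 3207 and 10880 bp against 4808 and 4071 bp, the 2 h values lying between the 30 min replicates (-0.73, and -1.20 and -0.26 without 30 min replicate 1 and 2).

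NF-kB subunits, inhibitors and targets had 3 late and 3 early of 22 (13.6% each, against 17.4% and 19.0% of all genes), with a median of 0.10. In bp 5 were late (22.7%, against 17.0%) and 0 early (against 0.727%). Nfkbia, the inhibitor IkB alpha, had 1118 and 1559 bp before restimulation, 7257 and 8643 bp at 30 min and 8530 and 9615 bp at 2 h; its log2 change of -0.13 was 0.19 without centring. Tnfaip3, which encodes the NF-kB inhibitor A20, had 1489 and 4758 bp at 30 min and 8445 and 10503 bp at 2 h (1.46, SE 0.40, limma adjusted p = 0.673). Bcl2a1d, a survival factor with near-identical copies whose reads may be split, had 1271 and 2252 bp against 4150 and 4698 bp (1.01, limma adjusted p = 0.451). By peak rank 7 of 20 were higher in both 2 h libraries (35%) and 1 in both 30 min libraries (5%), against 20.1% and 20.2%.

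Effector transcription factors had 8 late (38.1%) and 6 early (28.6%) of 21, with a median of 0.04, against 17.4% and 19.0% of all genes. In bp 6 were late (28.6%, against 17.0%) and 0 early (against 0.727%). Irf4, required for effector differentiation, had 3513 and 2772 bp before restimulation, 11442 and 23114 bp at 30 min and 23134 and 24360 bp at 2 h. Its 30 min replicate 2 was within 20 bp of a 2 h value, and the log2 change was 0.23 (limma adjusted p = 0.902). Batf, a partner of Irf4 on DNA, had 739 and 1182 bp, then 729 and 1349 bp, then 2796 and 2748 bp, so the 30 min libraries overlapped the NR libraries and the 2 h libraries did not (1.07, SE 0.17, limma adjusted p = 0.31). Stat5a, which carries the interleukin 2 signal, had 1287 and 3244 bp at 30 min and 7427 and 5474 bp at 2 h (1.27, limma adjusted p = 0.564), and summits outside promoter peaks inside it went from 0 and 0 to 3 and 8. Zeb2, a zinc finger transcription factor, had 0 and 425 bp against 1419 and 1953 bp (2.63, limma adjusted p = 0.794, and 1.83 without 30 min replicate 1).

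By called length, growth and metabolism lists leaned late apart from cholesterol. Ribosome biogenesis had 10 late (45.5%) and 2 early (9.09%) of 22, against 17.4% and 19.0% of all genes, with a median of 0.14. By fold enrichment 10 of its 18 genes ranked higher in both 2 h libraries (55.6%, against 20.1%). Polr1a, the large subunit of RNA polymerase I, had 0 and 1278 bp at 30 min and 1683 and 1905 bp at 2 h (2.03, limma adjusted p = 0.866), but 572 bp in 30 min replicate 1 by position, which gave 0.49. Without 30 min replicate 1 its change was 0.54, and without 30 min replicate 2 it was 3.53 (limma adjusted p = 0.0247). Polr1b, the second subunit, had 309 and 784 bp against 1067 and 1121 bp (0.67, limma adjusted p = 0.866), and Rrs1, a ribosome assembly factor, had 577 and 1661 bp against 2315 and 2648 bp (0.92, limma adjusted p = 0.60). Glycolysis genes had 7 late (43.8%) and 2 early (12.5%) of 16, against 17.4% and 19.0%, with a median of 0.26. In bp before centring 5 were late (31.2%) and 0 early, against 17.0% and 0.727% of all genes, and 0 had an unadjusted limma p under 0.05. By rank 2 of 16 were higher in both 2 h libraries (12.5%) and 1 in both 30 min libraries (6.25%). Both are below the shares of all genes, so rank showed no lean. Quiescence genes had 3 late and 3 early of 13 (23.1% each, against 17.4% and 19.0%). T cell receptor genes had 3 late (21.4%) and 5 early (35.7%) of 14, against the same shares of all genes. In bp before centring, quiescence genes had 0 late and 0 early, and T cell receptor genes had 2 late (14.3%) and 0 early.

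**Figure D4:**
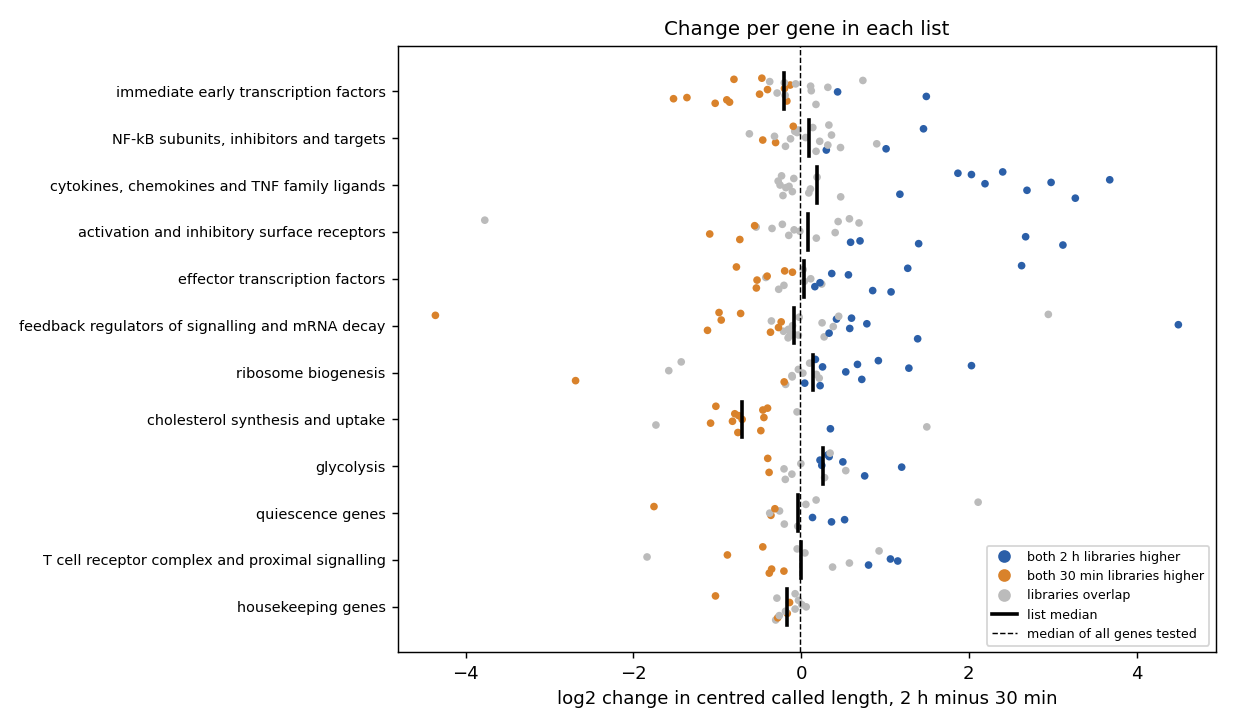
Log2 change in centred called length from 30 min to 2 h for each tested gene of 12 lists, coloured by whether both 2 h (blue) or both 30 min (orange) libraries were higher; black bars are list medians and the dashed line is the median of all genes tested (-0.01). The cholesterol list lies furthest left, with a median of -0.70, and no cytokine gene is orange.

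The balance of gained and lost peaks changed with the 30 min library that was left out. Peaks in both 2 h libraries and neither 30 min library were found for 74 genes (0.710% of 10419), and the reverse for 10 genes (0.0960%). Of the 74, 66 had no NR peak and 12 were gene models or small RNA genes; their median length at 2 h was 470.5 bp. By position, 47 of 62 with a value kept this pattern. By contrast 6 of the 8 genes with a position value among the 10 had a peak in all 4 libraries, which leaves 2 that kept it. Without 30 min replicate 2 the counts for 2 h only and 30 min only were 1313 and 157, and without 30 min replicate 1 they were 108 and 226, which turns the order. In both settings 30 min only needs a peak in 1 library, while 2 h only still needs a peak in 2. The directions are then not on equal terms, and the part of depth was not tested. For merged promoter regions the counts were 100 (0.910% of 10991) and 5 (0.0455%), and without 30 min replicate 1 they were 101 and 428.

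Beside Il2, Il13 and Ccl1, the longest of the 74, leaving out gene models and small RNA genes, were Itgb4, an integrin chain, with a mean of 3171.5 bp at 2 h, Inha, an inhibin subunit, with 2671.5 bp, and Dntt, the template-independent DNA polymerase of lymphocyte precursors, with 2430 bp. Itgb4 also had a peak of 2023 bp in NR replicate 2, so it was not absent before restimulation. The next were Spns2 (445 and 2802 bp), Mapk12 (1332 and 1845 bp), Mettl21b (312 and 2476 bp), Islr (294 and 2202 bp) and Marcks, with a mean of 1192 bp. Mettl21b had peaks in all 4 libraries by position, and Inha had 632 bp by position in 30 min replicate 2. Il31 (695 and 752 bp), Il15 (380 and 474 bp) and Cxcl11 (408 and 337 bp), picked out after their values were seen, are cytokines and a chemokine outside the list.

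Of the 10 genes seen only at 30 min, Tnfrsf13b stood out. It encodes TACI, a receptor for B cell survival factors (chr11:61126283-61153170), and had 2359 and 3545 bp at 30 min with no peak in NR or 2 h libraries, by assignment and by position. The B cell markers examined were all at 0 in these libraries. Rps3a1, Plagl2, Obsl1, Mfhas1 and Taf1d were the other named members, and by position all 5 had peaks at 2 h, with log2 changes of 0.42, 0.86, 0.85, 1.64 and 0.75, against negative ones by assignment.

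Genes outside the lists, chosen after their values were seen for their low p, show the same forms of change. Ikbke, an IKK-related kinase, had 819 and 1083 bp, then 723 and 1396 bp, then 3858 and 4046 bp, and St3gal1, a sialyltransferase, had 1052 and 2009 bp at 30 min and 4983 and 6867 bp at 2 h. Their log2 changes were 1.55 and 1.62 (limma adjusted p = 0.107 for both). Itgav, an integrin chain, had 1345 and 1965 bp against 4584 and 7137 bp (1.44), and Pdgfb, a growth factor chain, had 262 and 1023 bp against 3522 and 4207 bp (2.31), both with limma adjusted p = 0.24. Tnfrsf8, which encodes CD30, the receptor of Tnfsf8, had 545 and 1158 bp against 2838 and 4945 bp (1.78, limma adjusted p = 0.255). Pofut1 showed 1401 and 2463 bp against 6329 and 8364 bp, but by position its change was 0.21.

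On the early side, Ctla2a, a protease inhibitor of activated T cells, had 990 and 1091 bp before restimulation, 3934 and 4917 bp at 30 min and 1560 and 1974 bp at 2 h (-1.59, SE 0.20, limma adjusted p = 0.24, and -1.83 with adjusted p = 0.0321 without 30 min replicate 2). Abca7, a lipid transporter, had 1364 and 2092 bp against 586 and 780 bp, below its NR values of 1173 and 1262 bp (-1.52, limma adjusted p = 0.18). By peak rank it was at percentile 31.6 and 17.9 at 30 min and 1.41 and 0.917 at 2 h. Gfi1, a transcriptional repressor, went the other way from these genes both by length and by rank. Its log2 change was 1.46 (limma adjusted p = 0.417), and its percentile went from 29.7 and 33.0 at 30 min to 98.35 and 98.13 at 2 h.

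Late genes by length had a higher fold enrichment rank in both 2 h libraries in 555 of 1301 cases (42.7%), against 20.1% of all genes. Early genes had a higher rank in both 30 min libraries in 635 of 1764 (36.0%), against 20.2%. Length and rank come from the same called peaks, so these shares are no independent support for the classes. The share of a library's summits outside promoter peaks that fell inside late genes was 6.71% and 7.61% at 30 min and 8.95% and 8.98% at 2 h. For early genes it was 10.2% and 12.2% at 30 min and 9.67% and 10.5% at 2 h, so the times overlapped there. These summits were not used to define the classes, but they come from the same libraries.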

How the data were processed

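Polymerase II ChIP-seq peak lists of 6 libraries were used, called separately in each library, per the labels. Per the submitters' processing notes the tools include BWA 0.7.13, Picard 1.119 and MACS2 2.1.0, with the build mm10. The deposited tables give, per promoter peak, its width in bp, the signal as a pileup, the fold enrichment (a ratio) and the −log10 of p and q, per the file headers and the values. Deposited pileups are whole numbers in replicates 1 and scaled in replicates 2, so no count test was possible.

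Called length per gene was taken as log2(bp + 100), centred on 7410 genes with a peak in all 6 libraries, and fitted with limma 3.58.1 (R 4.3.3) on 9908 genes, with group as sole term and the 6 libraries together, Benjamini-Hochberg adjusted. The fit was tested on simulated data. Fold enrichment was only ranked within a library. Positions used a flank of 1000 bp. Promoters are from RefSeq (GRCm38.p6). Intergroup counts rest on 2 libraries each; the depth of a library is known only relatively.

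Per direction, the rule named 12 genes by size of change among those whose times did not overlap, taking list members where none passed the threshold; some genes were always named. Members and lists were chosen with earlier results of these data known. Cd274, Batf, Stat5a, Tnfaip3, Bcl2a1d, Polr1b, Rrs1, Hmgcs1, Idi1 and Lss are list examples picked after their values were seen. Some genes the rule names are not reported here.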

Additional observations from a re-analysis of the deposited data

How the results depend on the processing

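The test gave 0 genes longer and 0 shorter at 2 h also with a replicate block, where same-numbered libraries were treated as pairs. Over genes their deviations correlated at r = 0.408 between 30 min and 2 h, 0.442 between NR and 30 min and 0.269 between NR and 2 h. In all 3 groups replicate 2 was the deeper library with a scaled pileup, so the number goes with depth; the labels tie it to no animal or day. The longer and shorter counts were 5 and 3 with 1000 bp added, 0 and 1 with quantile normalisation, 0 and 4 with lists of equal length, and 90 and 23 by number of summits, a measure with few distinct values. Leaving out 1 library gave 0 to 181 longer and 0 to 25 shorter; leaving out 30 min replicate 2 gave the upper ends. By number of summits 148 genes were late and 39 early. Without centring 72 were early. Leaving out 1 library gave 2577 to 4059 late and 3071 to 3771 early genes, since fewer libraries must separate. Genes with a peak at only 2 h numbered 108 to 1313 and at only 30 min 29 to 226 in those fits, with regions at 101 to 1438 and 6 to 428. At only 30 min there were 39 genes and 44 regions with lists of equal length, and 3 genes by position.

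Early immediate early factors numbered 4 without centring and 7 by position, and early cholesterol genes 4 without centring and 11 to 13 without 1 library. Late cytokine genes numbered 6 to 14 without 1 library and 6 with lists of equal length. With lists of equal length, 17.5% of the 9067 genes tested were late. The number of listed genes tested in each of these settings is not given, so these are counts and not shares. Without 1 of the 4 libraries, 26.6% to 41.9% of all genes were late and 31.4% to 38.8% early. These counts over lists were chosen as alternatives after seeing the data.

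Direction reversed for Gnl3 (0.50), Rps3a1 (0.42), Plagl2 (0.86), Obsl1 (0.85), Mfhas1 (1.64) and Taf1d (0.75) by position. Without centring it reversed for Egr2 (0.15), Myc (0.12), Nfkbia (0.19), Ccl4 (0.10) and Ifng (0.17). With quantile normalisation Nfkbia was 0.00734 and Ifng 0.0303. Leaving out 30 min replicate 1 or 2 in turn gave -0.0267 and 0.39 for Atf3, 0.15 and -0.54 for Myc and 0.15 and -0.39 for Nfkbia. It gave 0.12 and -0.55 for Ccl4 and 0.13 and -0.41 for Ifng. For Nfkbid, with no assigned peak in the restimulated libraries, the values of 0.0807 and -0.71 hold only the centring. By number of summits Tnfrsf8 was -0.29, Gfi1 -0.58, Cd274 -0.29 and Stat5a -0.50. That measure counts called promoter peaks, not their length. In Cd274, 30 min replicate 1 had separate stretches from -507 to 312 and from 558 to 837 bp around the start. A single stretch ran from -791 to 4703 bp in 2 h replicate 1. Apart from the centring, whose shift is given above, and the assignments compared by position, the cause was not tested. Relative depth limits what the shallowest library, 30 min replicate 1, can show.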
